A study of Mus musculus with 3 samples.

Results

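The genes described here are 7 small nucleolar RNA (snoRNA) host genes, Gas5, Snhg1, Snhg3, Snhg5, Snhg6, Snhg8 and Snhg12, which were taken by symbol from the 48709 genes of the deposited count table. The table holds 3 RNA-seq libraries of 1 group, wild type (WT), so no condition can be compared with another. The animals were transgenic mice with a tamoxifen-inducible Cre (creERT2) under a smooth muscle actin promoter and with the red fluorescent protein tdTomato. Every library shares these alleles and a course of tamoxifen, given at 75 mg/kg body weight on each of 10 days to mice 8 weeks old. The mice were killed 2 months later, the lungs were digested with enzymes, and cells were sorted by flow cytometry and the sources used here give no gate for the sort. RNA was taken up in stranded total RNA libraries, which also hold unspliced and noncoding transcripts. The labels call the cells lung smooth muscle cells and name no animal for any library, so the spread between libraries may be technical in part.

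A snoRNA host gene carries short RNAs in its introns. As the introns are removed, the snoRNAs are trimmed out of them, bound by a set of core proteins, and sent to the nucleolus, where box C/D snoRNAs guide methylation and box H/ACA snoRNAs guide pseudouridylation of ribosomal RNA. The spliced exons of a noncoding host are often left as an RNA without a long reading frame that nonsense-mediated decay removes during translation, and many hosts start with a terminal oligopyrimidine (TOP) tract, through which growth signals control the translation of ribosomal protein mRNAs.

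GENCODE coordinates place 29 rows annotated as snoRNAs, at 27 distinct places, inside the 7 hosts on the same strand. Gas5 holds 10 of these rows, Snhg1 8, Snhg12 5, Snhg3 2, Snhg5 2, Snhg6 1 and Snhg8 1. The sequences below, from the transcripts of GENCODE release M21 (build GRCm38), show for each host the kind of RNA it carries. In the first 7, capitals mark the first TGATGA and the last CTGA, letters of the C box and D box; Snord87 is the only snoRNA of these hosts with a count, Snord47 and Snord80 come from Gas5, Gm25855 from Snhg1, Snord50a and Snord50b from Snhg5 and Snord99 from Snhg12. In Snora24 of Snhg8, capitals mark the ACA near the end that gives the box H/ACA class its name.

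Snord87: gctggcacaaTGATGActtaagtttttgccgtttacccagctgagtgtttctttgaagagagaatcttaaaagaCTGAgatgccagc
Snord47: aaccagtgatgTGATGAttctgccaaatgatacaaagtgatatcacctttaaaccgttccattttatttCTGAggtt
Snord80: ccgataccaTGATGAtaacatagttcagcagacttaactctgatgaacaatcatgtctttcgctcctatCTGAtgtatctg
Gm25855: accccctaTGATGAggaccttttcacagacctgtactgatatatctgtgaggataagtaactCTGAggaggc
Snord50a: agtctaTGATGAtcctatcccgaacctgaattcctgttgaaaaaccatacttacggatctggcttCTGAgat
Snord50b: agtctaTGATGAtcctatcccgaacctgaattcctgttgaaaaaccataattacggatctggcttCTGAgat
Snord99: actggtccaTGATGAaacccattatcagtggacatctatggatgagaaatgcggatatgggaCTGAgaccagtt
Snora24: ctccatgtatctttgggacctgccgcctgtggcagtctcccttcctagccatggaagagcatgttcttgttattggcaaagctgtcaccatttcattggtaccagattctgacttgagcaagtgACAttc

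These box C/D examples were chosen for holding both motifs. Of the 29 rows, 18 hold TGATGA, all of them with CTGA as well, against 26.6% with TGATGA among all 1559 snoRNA genes of the table, and 7 (24.1%) hold ACA followed by 3 last bases, against 19.3% of all snoRNA genes. Mir5117 in Gas5 is among the 7 and holds TGATGA too. Only the transcribed strand was searched. Snord50a and Snord50b differ at 1 of 72 bases, C50A, with positions counted from the first base of Snord50a. The pair in Snhg3, Snora73a and Snora73b, belongs to a box H/ACA family known for a part in cleaving the ribosomal RNA precursor. Capitals mark the 7 of 205 positions at which they differ, so that 96.6% of the bases are identical.

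Snora73a: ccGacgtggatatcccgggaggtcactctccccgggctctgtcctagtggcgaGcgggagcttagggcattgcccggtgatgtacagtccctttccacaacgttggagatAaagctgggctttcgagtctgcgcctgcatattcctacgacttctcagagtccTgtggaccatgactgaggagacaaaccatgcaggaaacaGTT
Snora73b: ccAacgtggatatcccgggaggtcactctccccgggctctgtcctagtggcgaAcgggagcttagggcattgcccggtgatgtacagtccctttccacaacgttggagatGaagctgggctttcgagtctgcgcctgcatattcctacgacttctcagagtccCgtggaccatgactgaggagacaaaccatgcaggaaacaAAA

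The starts of the hosts were read from the RefSeq promoter table (build GRCm38.p6), which has 7 start sites for 6 of the 7 genes. Each sequence runs from 40 bases before the start site through 30 bases from it, and capitals mark a run of at least 5 pyrimidines (C or T) over the start, or else within 5 bases before to 15 bases after it. They are shown because the TOP tract is a textbook feature of these genes, and Gas5 is shown by both of its starts.

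Gas5, first start, chr1:161034561-161034630, strand +: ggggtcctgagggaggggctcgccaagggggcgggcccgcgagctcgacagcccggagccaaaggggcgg
Gas5, second start, chr1:161035126-161035195, strand +: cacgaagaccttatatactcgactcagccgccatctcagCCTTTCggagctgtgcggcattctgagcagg
Snhg1, chr19:8723447-8723516, strand +: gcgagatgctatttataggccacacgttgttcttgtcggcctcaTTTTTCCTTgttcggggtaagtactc
Snhg3, chr4:132353657-132353726, strand -: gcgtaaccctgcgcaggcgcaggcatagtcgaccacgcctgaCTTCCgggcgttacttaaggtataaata
Snhg5, chr9:88522868-88522937, strand -: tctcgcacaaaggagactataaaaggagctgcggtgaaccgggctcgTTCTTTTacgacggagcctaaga
Snhg8, chr3:123508307-123508376, strand -: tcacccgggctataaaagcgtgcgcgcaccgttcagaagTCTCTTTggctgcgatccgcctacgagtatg
Snhg12, chr4:132308638-132308707, strand +: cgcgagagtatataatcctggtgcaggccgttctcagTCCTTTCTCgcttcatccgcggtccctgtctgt

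A pyrimidine run lay over the annotated start in 3 of the 7 host starts, against 10.1% of all 32851 starts in the table. The 3 were the second start of Gas5 and those of Snhg8 and Snhg12. Within the wider window a run was present in 6 of 7 host starts, all but the first of Gas5, and in 33.6% of all starts. The letters TATAA occurred on the transcribed strand in the 40 bases before 3 of the 7 host starts, and before 4.23% of all starts. Those 3 were Snhg5, Snhg8 and Snhg12. That window was widened after the values were seen. From 40 to 21 bases before the start, the counts were 2 of 7 host starts and 3.31% of all starts. These matches describe letters in the sequence, and none of them was tested for use in these cells.

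The libraries held 18896263, 18355813 and 16877297 counts, and levels are given as counts per 1000000 counts of the library (CPM). A gene with 0 counts could still lie at up to 3 counts, or 0.159 to 0.178 CPM, by counting error alone. Genes annotated as microRNAs took 15.1%, 12.9% and 8.36% of the counts of libraries 1, 2 and 3, and 30433 genes had a count in library 3 against 24939 and 26207 in libraries 1 and 2. Markers of several lung cell types were present. The 8 smooth muscle markers summed to 87.2, 113 and 85.9 CPM, with Acta2 at 13.2 ± 3.36 CPM (SD, n = 3) and Cnn1, a marker of contractile cells, at 0.226 ± 0.200 CPM, and 5 of the 8 had a mean of at least 10 CPM. The 9 lymphocyte markers summed to 1092, 1234 and 1246 CPM. Because bulk RNA was measured, fewer cells of a type and less RNA per cell cannot be told apart.

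Together the 7 host genes had 4328, 4859 and 5962 counts, or 229, 265 and 353 CPM, in libraries 1, 2 and 3. Gas5 alone made up 52.5% of their mean level, and 5 of the 7 had a mean of at least 10 CPM. Among the 52 genes of a long noncoding class in the deposited table that carry a snoRNA on their strand, 28 had a mean of at least 1 CPM and 11 of at least 10 CPM. Gas5 ranked first of the 52, Snhg12 rank 5, Snhg1 rank 6, Snhg5 rank 8, Snhg8 rank 9, Snhg6 rank 13 and Snhg3 rank 36. The gene at rank 2, Cct6a, is a processed transcript by the biotype in the table and is also in the list of protein-coding hosts. The levels by library are drawn in the plot of CPM for each host gene.

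**Figure D1:**
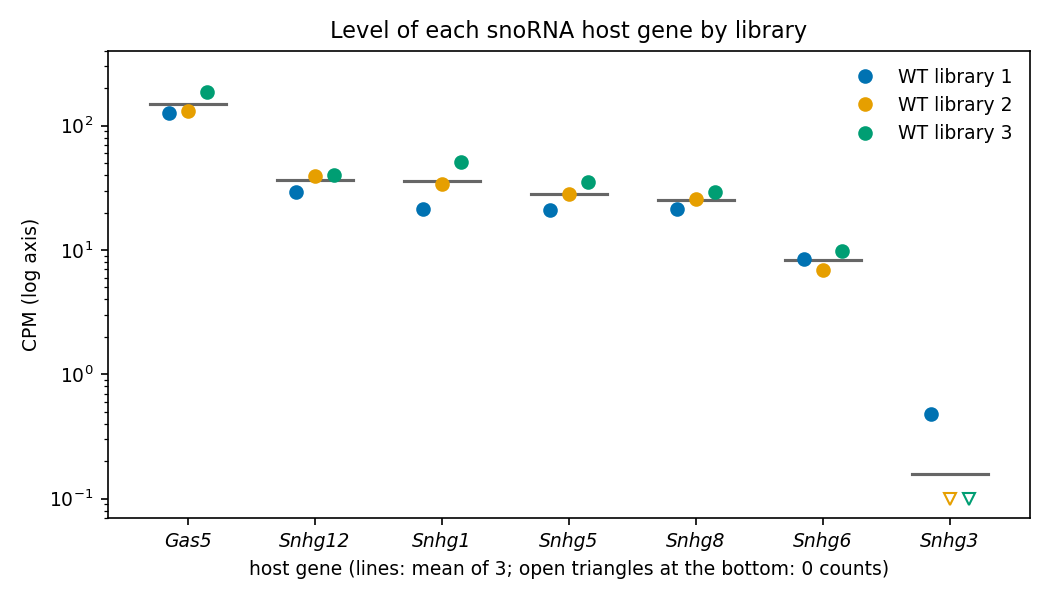
CPM of each host gene (log axis) in WT libraries 1, 2 and 3, with a line at the mean of 3; open triangles mark 0 counts. Gas5 lies between 127 and 187 CPM, 4 genes lie between 21.0 and 51.1 CPM, Snhg6 is below 10 CPM, and Snhg3 has counts in library 1 only.

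Gas5 (ENSMUSG00000053332, chr1:161034422-161038539, plus strand) was named for its accumulation in growth-arrested cells, and its spliced RNA is known to bind the glucocorticoid receptor. It had 2400, 2396 and 3163 counts, equal to 127, 131 and 187 CPM. Libraries 1 and 2 lay close together and library 3 above both. Its mean of 148 ± 33.9 CPM (SD, n = 3) placed it rank 6 of 7396 long noncoding genes in the table.

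Snhg1 (ENSMUSG00000108414, chr19:8723475-8726443, plus strand), host of the box C/D snoRNA Gm25855 printed above, had 405, 626 and 862 counts. These equal 21.4, 34.1 and 51.1 CPM, a mean of 35.5 ± 14.9 CPM (SD, n = 3) and a 2.38-fold ratio of the highest to the lowest library. It had the widest relative spread of the 6 members with at least 10 counts. Its coefficient of variation was 41.9%, and 96.6% of the 4571 genes within 2-fold of its level had a lower one (median 13.8%).

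Snhg12 (ENSMUSG00000086290, chr4:132308678-132311024, plus strand) carries snoRNAs of both classes, Snord99 and the box H/ACA RNAs Snora16a, Snora44 and Snora61. It had 556, 721 and 682 counts, or 29.4, 39.3 and 40.4 CPM. Library 1 was low and the other two were close together, for a mean of 36.4 ± 6.04 CPM (SD, n = 3).

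Snhg5 (ENSMUSG00000097195, chr9:88521050-88522929, minus strand) hosts the near-identical Snord50a and Snord50b. It had 396, 514 and 599 counts, or 21.0, 28.0 and 35.5 CPM, and a mean of 28.2 ± 7.27 CPM (SD, n = 3). No 2 libraries were close together. Of the 50-base words of its transcripts, 10.4% also occur in transcripts of genes other than itself and its snoRNAs. Part of its reads could therefore match elsewhere.

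Snhg8 (ENSMUSG00000104960, chr3:123507552-123508404, minus strand), the shortest of the host genes, carries Snora24. It had 402, 475 and 492 counts, or 21.3, 25.9 and 29.2 CPM, and a mean of 25.4 ± 3.96 CPM (SD, n = 3). Library 1 was again the lowest, with a narrower range than in Snhg1 or Snhg5.

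Snhg6 (ENSMUSG00000098234, chr1:9941959-9944118, minus strand) carries Snord87 in an intron. It had 160, 127 and 164 counts, or 8.47, 6.92 and 9.72 CPM, and a mean of 8.37 ± 1.40 CPM (SD, n = 3). It was the only one of the 6 members with at least 10 counts whose lowest value was in library 2. Its exons share 127 bases with Mcmdc2, a gene on the opposite strand at 1.74 ± 0.602 CPM, and reads there could be told apart only by strand.

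Snhg3 (ENSMUSG00000085241, chr4:132348014-132353686, minus strand), host of the Snora73 pair, had 9 counts in library 1 and 0 in libraries 2 and 3, for upper limits of 0.163 and 0.178 CPM. The 9 counts equal 0.476 CPM. Its annotated exons are shared with other genes over most of their length. Rcc1, a nucleotide exchange factor for the GTPase Ran on the same strand, covers 135 exon bases and had 97, 97 and 122 counts. Gm17300, a long noncoding RNA on the opposite strand, covers 705 exon bases and had 6, 21 and 11 counts. Only 135 of the 986 exon bases of Snhg3, or 13.7%, belong to no other gene. Of all its 50-base words, 57.0% also occur in Gm17300 or Rcc1. The sources used here do not give how such reads were counted, so the low count does not show that the transcript was absent.

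**Figure D2:**
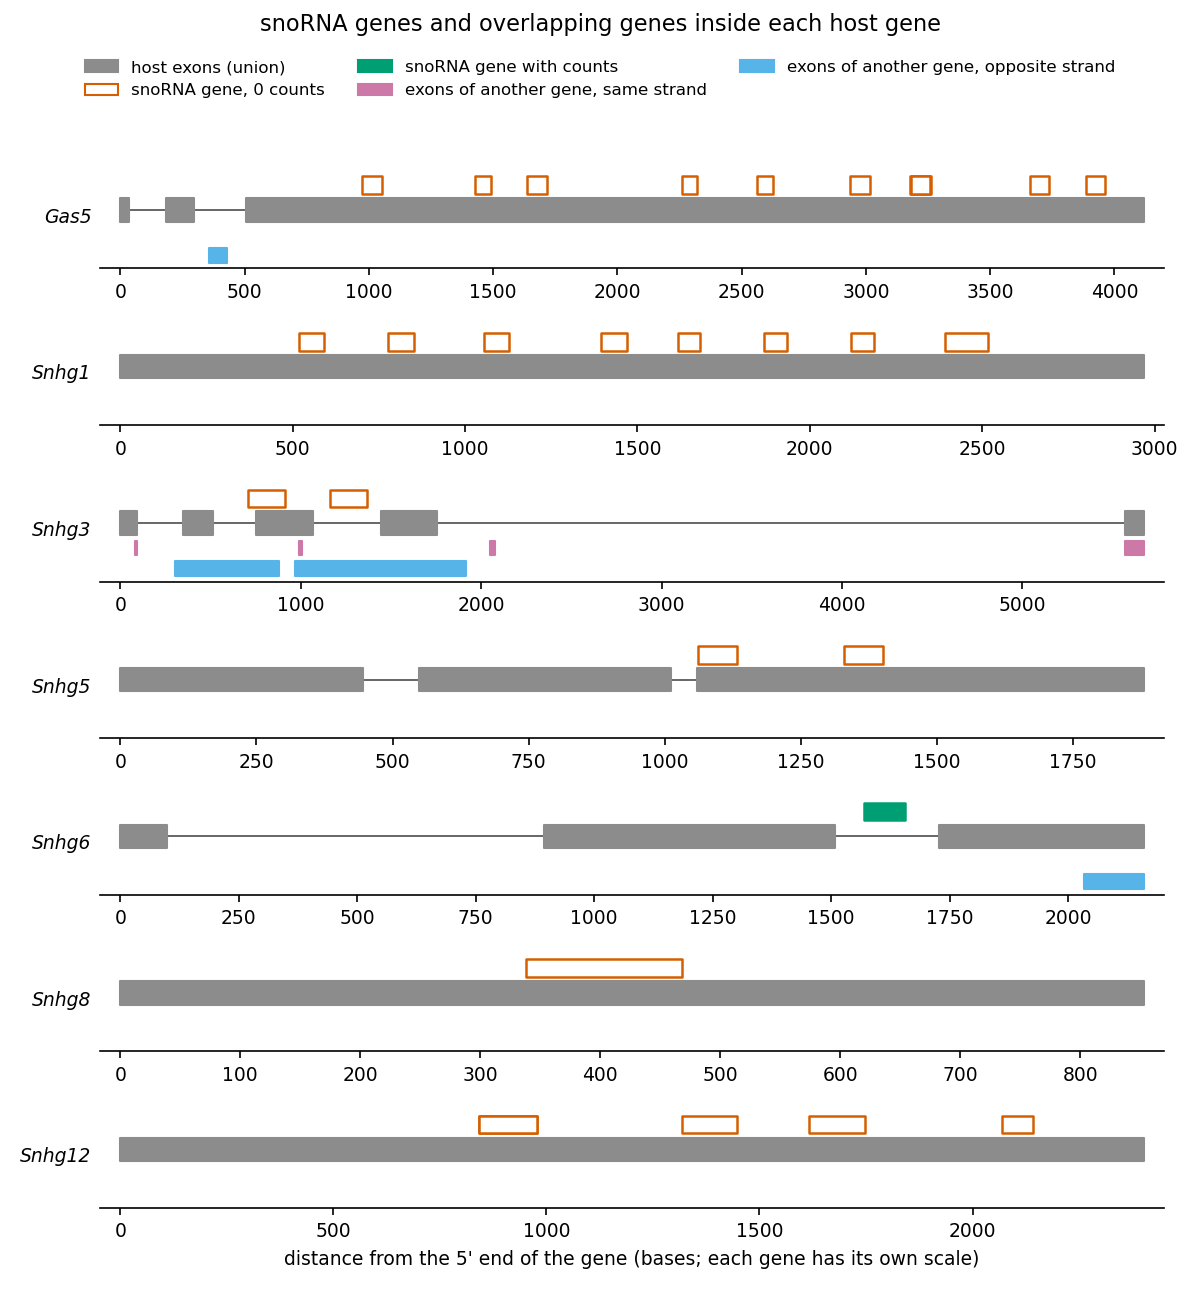
Maps of the 7 host genes in bases from the 5′ end, each on its own scale: grey, union of host exons; open boxes, snoRNA genes with 0 counts; green, a snoRNA gene with counts; lower rows, exons of other genes on the same and on the opposite strand. The green box, Snord87 in Snhg6, lies outside the grey exons, and the exons of Snhg3 are largely covered by those of other genes.

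The snoRNA rows themselves were at 0 in all 3 libraries for 28 of 29. The exception was Snord87, with 98, 128 and 83 counts. Its level relative to Snhg6, as a log2 ratio with a pseudocount of 1 CPM, was -0.61, 0.01 and -0.86, a mean of -0.49 ± 0.45 (SD, n = 3), and library 2 had the highest Snord87 and the lowest Snhg6. Per kilobase, the snoRNA stood above the host exons by 3.16 ± 0.51 (log2, SD, n = 3) and was higher in 3 of 3 libraries. That value rests on dividing by only 87 bases for Snord87, against 1146 exon bases for Snhg6. Reads that overlap so short a gene only in part, or that come from unspliced Snhg6, may add to it. How much they add was not tested. None of its 38 words of 50 bases occurs in another gene's transcripts.

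Position set Snord87 apart from most of the other rows, though not from Snora73b. Of the 29 rows, 26 lie wholly in annotated exons of their host, as the union of all annotated transcripts has it. Transcripts of the retained intron class make up 20 of 25 for Gas5, 14 of 18 for Snhg1, 3 of 6 for Snhg5 and 1 of 3 for Snhg8, and 0 for Snhg12, whose 5 snoRNA rows lie in exons too. Snora73a lies partly in host exons, over 159 of its 205 bases, and Snord87 and Snora73b lie outside them. Every 50-base word of Snora73a and Snora73b also occurs in other genes, each other and Gm17300 among them, and both were at 0.

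The same survey was made over all snoRNA genes, a step chosen after these zeros were seen. Of 530 in a same-strand gene but outside exons, 197 (37.2%) had at least 1 count, and Snord87 ranked 16 among them. Of 134 wholly in exons of a same-strand gene, 19 (14.2%) had one. The share was 13 of 30 (43.3%) for rows partly in exons of another gene, 183 of 850 (21.5%) for rows in no same-strand gene, and 0 of 15 for rows wholly in exons of an opposite-strand gene. Leaving out the rows of the 7 hosts, the class wholly in exons of a same-strand gene had 19 of 108 (17.6%). At a minimum of 10 counts, 23.6% of rows in a same-strand gene but outside exons passed. The share was 11.9% for rows wholly in same-strand exons, or 14.8% without the rows of the 7 hosts. It was 13.3% for rows partly in exons and 5.18% for rows in no same-strand gene, so the order of the classes depends on the minimum. These shares are descriptions over genes with no test, and the sizes and levels of the snoRNAs in each class were not matched. Where a row shares its bases with host exons, whether reads from them were counted to the host was not tested, and the zeros do not show that these snoRNAs were absent.

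**Figure D3:**
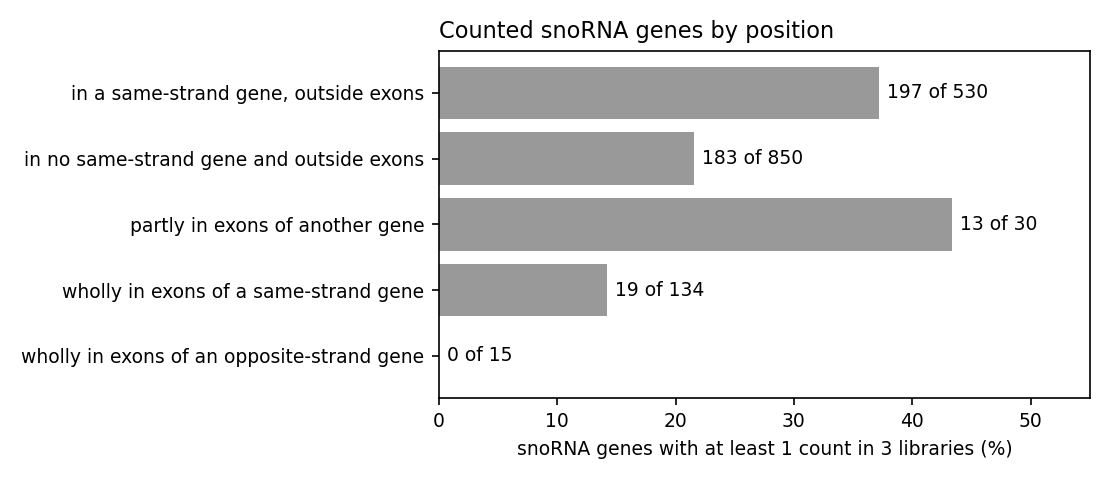
Percentage of snoRNA genes with at least 1 count over the 3 libraries, by position relative to exons of other genes, with the number counted of the number in each class. Rows in a same-strand gene outside exons reach 37.2%, against 14.2% for those wholly in same-strand exons.

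Levels of different genes were compared per kilobase of exon. Gas5 had 39.4 ± 9.02 CPM per kilobase (SD, n = 3), Snhg8 29.8 ± 4.64, Snhg5 16.3 ± 4.20, Snhg12 15.1 ± 2.52, Snhg1 12.0 ± 5.01 and Snhg6 7.30 ± 1.22. The 9 counts of Snhg3 gave a mean of 0.161 CPM per kilobase. The order differs from that of the CPM values mainly for Snhg8, whose 853 exon bases compare with 3760 in Gas5.

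Within a library, Gas5 exceeded Snhg8 by 0.39 ± 0.18 (log2 per kilobase, SD, n = 3) and Snhg8 exceeded Snhg5 by 0.89 ± 0.15, each in 3 of 3 libraries. Per kilobase of all annotated exons, the next neighbours had no common order over the libraries: Snhg5 minus Snhg12 was 0.09 ± 0.17, Snhg12 minus Snhg1 0.41 ± 0.41 and Snhg1 minus Snhg6 0.64 ± 0.58. Snhg12 minus Snhg1 was negative in library 3 only, at -0.03, and the length used for Snhg12, 2402 bases, is that of GENCODE, which starts the gene earlier than the deposited coordinates. No test was made of these differences, since the smallest two-sided p that exact sign-flip permutation of 3 libraries allows is 0.25. The length of the longest transcript raised Gas5 minus Snhg8 to 0.81 and Snhg12 minus Snhg1 to 0.93 and lowered Snhg8 minus Snhg5 to 0.53, and neither Gas5 nor Snhg8 changed rank. With that length Snhg12 lay above Snhg1 in 3 of 3 libraries. Snhg1 lay above Snhg6 in 3 of 3 libraries when exon bases of snoRNAs, or of any other gene, were left out of the length, by 0.98 ± 0.58 and 0.81 ± 0.58. Only the length changed, and the counts were the same. Without snoRNA bases Snhg1 had 2347 bases instead of 2969, while Snhg6 kept 1146.

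**Figure D4:**
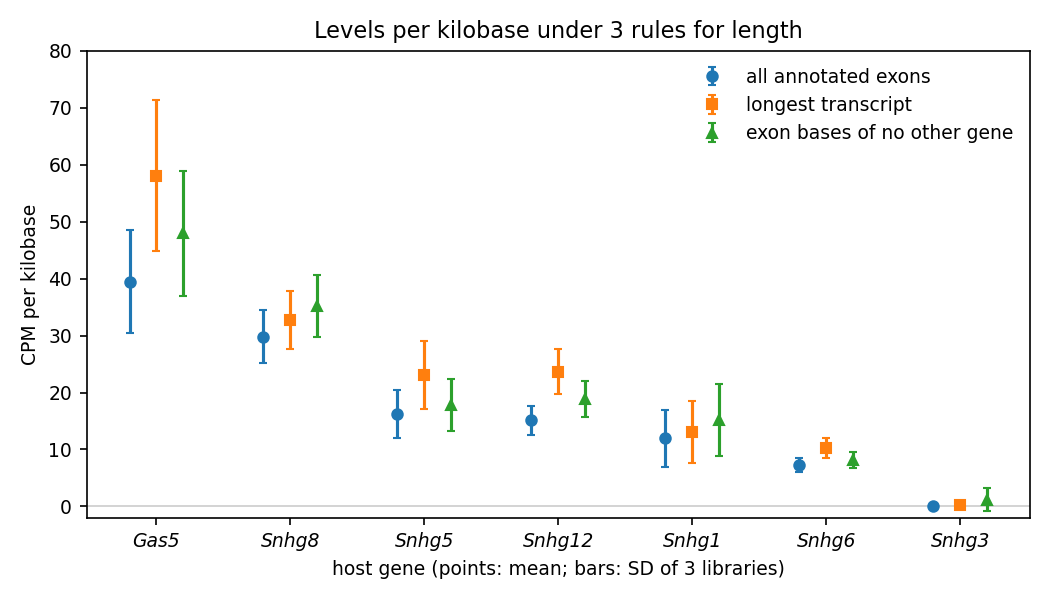
CPM per kilobase for each host gene under 3 rules for its length (points, mean; bars, SD of 3 libraries). Gas5 and Snhg8 hold ranks 1 and 2 under each rule, while Snhg5, Snhg12 and Snhg1 overlap within their bars under all annotated exons.

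Library 3 was the highest for each of the 6 members with at least 10 counts, and library 1 the lowest for 5 of them. These 5 are the members with a mean of at least 10 CPM, which leaves out Snhg6 at 8.37 CPM. Over all 8944 genes with a mean of at least 10 CPM, library 3 was the highest for 50.9% and library 1 the lowest for 49.8%. Both shares depend on the scaling. With library totals scaled by edgeR's TMM method, they were 29.2% and 36.9%, and 5 of the 6 members were still highest in library 3, whereas Snhg12 was highest in library 2 (31.0, 40.0 and 37.7 CPM on that scale). Gas5 was then lowest in library 2, at 134, 133 and 175 CPM, which left 4 of the 6 lowest in library 1, and DESeq2 size factors gave the same highest and lowest library for both genes. TMM scaling shifted all log2 levels by 0.07, 0.03 and -0.10 in libraries 1, 2 and 3.

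Variation beyond counting error was tested for each gene with a chi-square test on TMM-scaled totals. It was called, at an adjusted p under 0.05, for 5 of the 6 members tested, Gas5, Snhg1, Snhg5, Snhg8 and Snhg12, and not for Snhg6. Snhg3, with under 10 counts, was not tested. Of all 23317 genes tested, 70.0% were called, and 78.0% of those with a mean of 10 to 200 CPM, so a call sets no member apart. Without library 1, where 38.2% of 21653 genes tested were called, the calls of Snhg8 and Snhg12 were lost and 3 remained. Without library 3, where 56.8% of 21608 were called, that of Gas5 was lost.

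Between libraries 3 and 1, the 5 members with a mean of at least 10 CPM had a median log2 difference of 0.56, against 0.14 for all genes at that level. With TMM scaling the medians were 0.39 and -0.02. With either scaling, the median of the listed other noncoding hosts lay above both medians, and that of the listed protein-coding hosts below both. The plot of differences by gene list shows the values without TMM scaling. Zfas1, Gm12940 and Snhg15, the 3 listed other noncoding hosts at that level, had a median of 1.06, or 0.91 with TMM scaling. The 36 listed protein-coding hosts had one of -0.01, or -0.18 with TMM scaling. Without TMM scaling they ranged from -0.33 in Rpl23a to 0.96 in Taf1d, and 11 of the 36 were highest in library 3. Gm12940 holds no annotated snoRNA in GENCODE, and not every noncoding gene with a snoRNA at that level was listed.

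**Figure D5:**
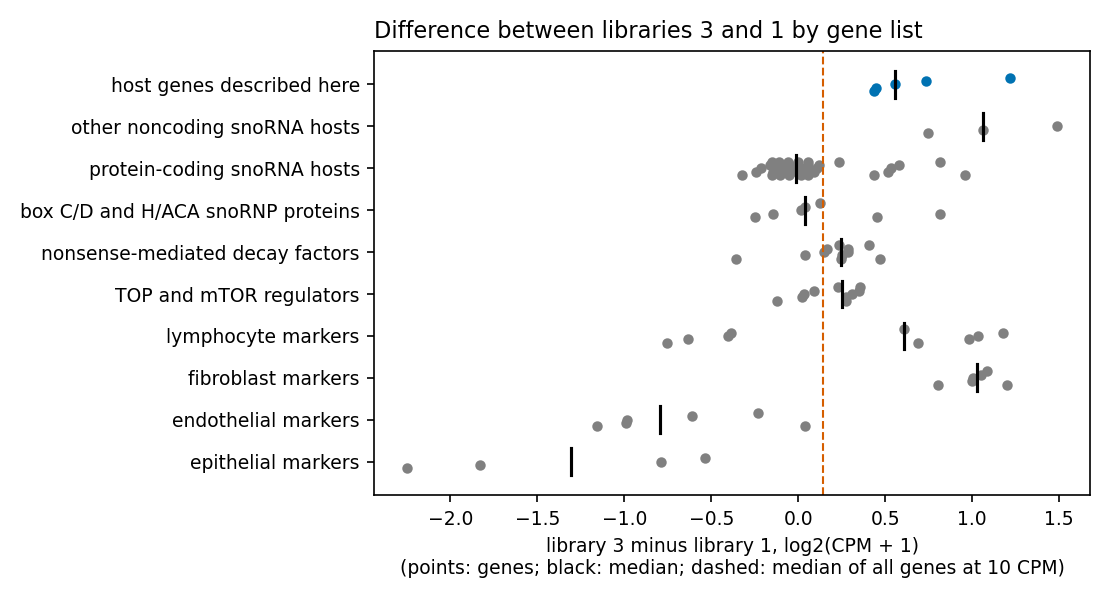
Library 3 minus library 1 in log2(CPM + 1) for genes with a mean of at least 10 CPM, by list (points, genes; black lines, list medians; dashed line, the median of all such genes, 0.14). The 5 host genes lie to the right of the dashed line, with a median of 0.56, and so do fibroblast markers and part of the lymphocyte markers, while epithelial markers lie to its left.

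Markers of cell types moved between the same libraries. The 6 fibroblast markers summed to 740 CPM in library 1 and to 1451 and 1517 CPM in libraries 2 and 3, with 6 of 6 lowest in library 1. Epithelial markers summed to 14809, 2966 and 8022 CPM and endothelial markers to 734, 431 and 543 CPM. Most of the epithelial sum was 1 gene, Scgb1a1, at 13192, 2632 and 7641 CPM. Among lymphocyte markers, Cd79a of the B cell receptor complex had 114, 172 and 233 CPM, whereas Cd3e of the T cell receptor complex had 153, 147 and 98.1 CPM. Their part in the higher host gene levels of library 3 was not tested.

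The nearest protein-coding genes to the summed host genes over the libraries, among 2749 with a mean of at least 50 CPM, were Arap2, Cntrl, Tnrc6a, Rbm5 and Ptpn4. Nearness was the root mean square difference of centred log2(CPM + 1) values. Arap2 had 191, 220 and 293 CPM, at a distance of 0.00314, and Ptpn4 41.9, 48.2 and 65.4 CPM, at 0.00787. With 3 libraries such likeness is common: 297 genes (10.8%) lay within 0.1.

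Other noncoding genes listed as hosts gave a wider view of the class. Of 16 listed, 14 matched a row, of which 9 hold an annotated snoRNA in GENCODE and Snhg4, Snhg7, Snhg11, Gm12940 and Rnu12 hold none there. Of the 14, 11 had a mean of at least 1 CPM and 3 of at least 10 CPM, and their median was 2.67 ± 0.12 log2(CPM + 1) (SD, n = 3), against 1.04 for all 33333 genes with a count. Zfas1 had 16.7, 29.8 and 48.6 CPM, lowest in library 1 and highest in library 3 like Snhg1. Gm12940 had 19.3, 27.0 and 33.0 CPM and Snhg15 5.40, 13.8 and 12.4 CPM. Means between 1 and 10 CPM were found for Snhg14 (8.46), Snhg17 (8.31), Snhg9 (6.50), Epb41l4aos (6.40), Snhg4 (4.53), Snhg20 (4.12), Rnu12 (3.76) and Snhg18 (2.71). Snhg7 had 0 counts in all 3 libraries.

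The 36 listed protein-coding hosts, most of them genes of the translation machinery, all had a mean of at least 10 CPM and 30 of at least 100 CPM, with a median of 8.91 ± 0.11 log2(CPM + 1) (SD, n = 3). Tpt1, a TOP mRNA, had 2860 ± 106 CPM, the chaperone gene Hspa8 2197 ± 74.0 CPM and the ribosomal protein gene Rpsa 1787 ± 142 CPM. The lowest, Rpl13a, had 19.1 ± 3.01 CPM.

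Of the 8 core proteins of snoRNPs, the particles that snoRNAs form, 7 had a mean of at least 10 CPM. Nop56, a box C/D protein whose own gene hosts snoRNAs, had 97.6, 131 and 172 CPM, and Nop58, its partner, 49.6, 55.4 and 68.2 CPM. The methyltransferase Fbl had 34.9 ± 4.05 CPM (SD, n = 3), and the lowest was Gar1 of the H/ACA particle at 5.84 ± 1.36 CPM. Of 12 assembly factors, 6 reached 10 CPM, led by Nolc1 at 59.4 ± 9.64 CPM, then Tgs1 at 26.9 ± 3.02 and Ruvbl1 at 22.9 ± 1.80, with Shq1 lowest at 4.77 ± 2.34 CPM.

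Of 12 nonsense-mediated decay factors, 11 had a mean of at least 10 CPM, with a list median of 6.08 ± 0.12 log2(CPM + 1) (SD, n = 3). The kinase Smg1 had 443 ± 71.3 CPM, the helicase Upf1 114 ± 8.50 CPM and, lowest, Smg8 7.60 ± 2.66 CPM. Of 12 TOP and mTOR regulators, 10 reached 10 CPM. They were led by Cnbp at 284 ± 27.8 CPM, the TOP-binding protein Larp1 at 147 ± 8.64 CPM and the kinase Mtor at 58.2 ± 7.25 CPM, and Mlst8 was lowest at 7.75 ± 0.209 CPM. The glucocorticoid receptor and its targets, listed for their link to Gas5, had 8 of 8 genes at or above 10 CPM. Tsc22d3 had 287 ± 13.3 CPM, Per1 280 ± 43.6 CPM, Dusp1 194 ± 1.89 CPM and Fkbp5, the lowest, 43.4 ± 8.12 CPM.

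The protein-coding neighbours of the hosts did not share 1 level. Zbtb37 overlaps Gas5 on the opposite strand, with 0 exon bases in common, and had 32.4 ± 3.67 CPM (SD, n = 3). Slc3a2, the neighbour of Snhg1, had 76.3, 66.5 and 69.7 CPM, highest in library 1 where Snhg1 was lowest. Syncrip, near Snhg5, had 147 ± 10.1 CPM, Trnau1ap, near Snhg12, 9.78 ± 1.12 CPM, Prss12, near Snhg8, 7.68 CPM, Rcc1, at Snhg3, 5.88 ± 1.17 CPM and Tcf24, near Snhg6, 0.132 ± 0.0943 CPM.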

How the data were processed

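Read counts per gene, not normalized, are the values of the authors' deposited table for 48709 mouse Ensembl genes. The tools named in the submitters' processing notes are STAR 2.6.1d, Trimmomatic 0.38, FastQC, DESeq2 1.18.1 and featureCounts 1.6.3, with no order or settings; the builds listed are human (hg38, GRCh38), whereas the gene IDs are mouse. Of 48349 IDs shared with GENCODE M21 (GRCm38), 42754 (88.4%) had the same coordinates, among them 6 of the 7 host genes. The exception was Snhg12, which starts at 132308678 in the deposited coordinates and at 132308623 in GENCODE. Exons, exon lengths, overlaps and snoRNA sequences come from GENCODE, and promoters from RefSeq. The sources used here give neither the use of strand nor the handling of reads in overlapping genes. Count columns named as controls 1 to 3 were assigned to WT libraries 1 to 3 by number.

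The host genes and all gene lists were chosen with earlier results of these data known. Levels are CPM of the library total, or log2(CPM + 1) where stated. Variation between libraries was tested with a chi-square test of homogeneity on TMM-scaled totals (edgeR 4.0.16, R 4.3.3) for genes with at least 10 counts, adjusted by Benjamini-Hochberg over 23317 genes; the test was checked on simulated data. DESeq2 1.42.0 gave alternative size factors. Named genes are all host genes, snoRNAs inside them with a count, overlapping genes, listed neighbours, other noncoding hosts with a mean of at least 1 CPM, the 3 highest and the lowest of each further list, and the 5 protein-coding genes nearest to the hosts over libraries. Not every gene that this rule takes is reported here, although list counts and medians include all listed genes; other snoRNAs, Snhg7, Cct6a, Cd79a, Cd3e, Acta2 and Cnn1 were named after their values were seen. Alternatives were other scalings, count minimums, pseudocounts and lengths, and each library left out.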

Additional observations from a re-analysis of the deposited data

How the results depend on the processing

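No paired analysis was possible because the labels give 1 group. Of 231 recomputed values of 41 results, 219 were kept, and 217 of these kept their sign. A value was kept on the same side of the threshold, within 1 SD of the main value or, for counts, within a set fold range. Leaving 1 library out of 3 cannot move a mean by 1 SD, so such values of means were bound to be kept. The sign turned in 4 values, all of Snhg5 minus Snhg12, which had no common sign over the libraries to begin with. Leaving out each library in turn gave 8275 to 12273 genes called variable and 3 to 5 host genes called. The lowest numbers, 8275 genes and 3 host genes, came without library 1, where Snhg8 (adjusted p = 0.712, chi-square) and Snhg12 (0.415) were no longer called; fewer libraries were tested there. Without library 3, Gas5 was no longer called (0.875). With unscaled library totals, where 72.1% of 23317 genes were called, Snhg6 was called too (0.0237). With the length of the longest transcript, Gas5 minus Snhg8 was 0.81, Snhg8 minus Snhg5 0.53 and Snhg12 minus Snhg1 0.93 (log2 per kilobase). Snhg5 minus Snhg12 was -0.06 with that length, -0.02 without library 3, and -0.10 both without snoRNA bases and with exon bases shared with no other gene, the latter rule chosen after seeing the data. The median of the listed other noncoding hosts was 2.44 with a pseudocount of 0.1. For these moves the alternative itself changes the length or the scale. Snhg3 has 9 counts, under the minimum of 10, and was called with a minimum of 1 count (adjusted p = 0.00042, chi-square). At that minimum 53.3% of 33333 genes were called, and the call of Snhg3 rests on 9 counts in library 1. For Snhg3 and the snoRNA rows at 0, the parts of depth and of overlapping genes cannot be told apart.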
